A study of Rattus norvegicus with 8 samples.

Results

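The genes described here encode 10 RNA-binding and partner proteins of stress granules, and they were measured in NR8383 cells, a rat alveolar macrophage line obtained by lung lavage, after exposure to zinc oxide (ZnO). The set was chosen by a measured value, the signal of the array's Caprin1 probe, which was lower at the higher dose, and the question was whether the other granule genes followed it. Caprin1 is therefore given as a description with no test, and counts over the set leave it out. Probes were assigned through the RefSeq transcript accession in the array files: 9 of the 10 genes had a probe, with 16 of the 45598 non-control probes between them. No probe matched an Atxn2 transcript, so Atxn2 is not analysed here. The role order used below is the G3BP proteins and their partners Caprin1, Usp10 and Ubap2l, then the TIA proteins, then Pabpc1 and Fmr1.

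Stress granules are cytoplasmic assemblies of messenger RNA, small ribosomal subunits and RNA-binding proteins that form when translation initiation is blocked, commonly after phosphorylation of the initiation factor eIF2 alpha. The G3BP proteins are the central scaffold: CAPRIN1 binds them and favours assembly, USP10 binds the same site and opposes it, and UBAP2L acts with them in granule formation. The factors around this core, such as TIA1, TIAL1, PABPC1, ATXN2 and FMRP, bind RNA themselves. Granules are assembled from proteins that already exist, so transcript levels on an array do not report whether granules were present.

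The study exposed the cells to ZnO at 4 µg/mL or 16 µg/mL for 4 h, with 4 samples per dose, and each RNA was run on a one-colour Agilent array. The labels give 20 passages of the line for the 4 µg/mL samples and 200 passages for the 16 µg/mL samples, and the arrays of each dose shared a slide and a scan of their own. Dose, passage number, slide and scan therefore cannot be told apart in any difference below. Untreated cells are named in the study's design and are not analysed here, so every comparison is 16 µg/mL against 4 µg/mL and none is against resting cells. The labels do not say whether the 4 samples of a dose came from separate cultures, and p-values measure only the spread between these samples. The line is a single cell culture with adherent and floating cells, and fewer cells of a state and less RNA per cell cannot be told apart in such bulk RNA.

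A level here is the log2 processed signal of a probe minus the log2 of the array's 75th percentile signal, and a difference is the mean level at 16 µg/mL minus that at 4 µg/mL. Levels of different probes are not compared with each other, since probes differ in brightness. Each array detected 31.5% to 39.3% of its probes above background, the 75th percentile signal ranged from 150.7 to 516, and no spot was saturated. Of the 11 macrophage markers with a probe, 10 were detected at both doses, against 0 of 6 epithelial, 0 of 4 fibroblast, 1 of 3 endothelial (Cdh5), 1 of 3 T cell (Cd3d) and 0 of 1 B cell markers. The arrays' 7 added spike-in probes that were well above background everywhere differed between doses by -0.69 to 1.60 on the same scale, with 5 higher and 2 lower at 16 µg/mL. The part of that spread in the results was not tested. Among all 13474 genes tested, 41.7% passed an adjusted p of 0.05 (limma, Benjamini-Hochberg), 19.8% higher and 21.8% lower at 16 µg/mL, and the median difference was 0.005. Without the percentile scaling the median gene was at -0.75, so each member's difference is relative to the typical transcript.

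Caprin1, whose protein binds G3BP and promotes granule assembly, has 1 probe (A_44_P817539, for transcript NM_001012185). Its level in the 4 µg/mL samples was -1.80, -2.24, -1.56 and -1.72, and in the 16 µg/mL samples -6.16, -5.82, -5.94 and -6.55. The doses lie far apart, and 4 of 4 arrays at 4 µg/mL but 0 of 4 at 16 µg/mL called the probe well above background. The mean was -1.83 ± 0.29 (SD, n = 4) at 4 µg/mL and -6.11 ± 0.32 (SD, n = 4) at 16 µg/mL, a measured difference of -4.28. Because the spot could not be told from background at 16 µg/mL, that fold is not a measured ratio, and the signal was at least 4.88-fold lower when the dim arrays are set at their lowest signal that was well above background. Before background subtraction the spot's median signal was 190, 110.5, 204 and 185 at 4 µg/mL, over a local background of 32, 34, 35 and 39. At 16 µg/mL the same spot read 37, 27, 22 and 35.5 over a local background of 27, 30, 32 and 35, about the brightness of the glass around it. These values chose the set and support nothing beyond themselves. Going from 4 of 4 arrays well above background to 0 of 4 was found for 241 genes, 1.79% of those tested.

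The Caprin1 spot carried no outlier flag on any array and lay outside the low-signal areas found on 2 arrays. Among the 110 spots within 5 rows and columns of it, 49 were well above background at 4 µg/mL, 45 of those were also so at 16 µg/mL, and their median difference was -0.15. The 49 were picked by the 4 µg/mL arrays alone, a choice that leans toward lower values at 16 µg/mL. No second Caprin1 probe was on the array, so the fall rests on 1 probe. The difference of -4.28 depends on how the dim signal is treated: it was -1.30 with the normexp background model and quantile normalization, which adds an offset of 50, and -2.29 with dim signals raised to the lowest well-above-background signal.

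ZnO particles release zinc ions, so the promoters of the set were searched for the core of the metal response element, the sequence bound by the zinc-sensing factor MTF1. RefSeq's GRCr8 table held 11 start-site windows of 8 of the genes (Ubap2l and Pabpc1 had no entry), read as the 250 bases before each start. The letters searched were TGCACNC and TGCGCNC on both strands. A match was present in 7 of 11 windows and in 6 of 8 genes, namely G3bp1, G3bp2, Caprin1, Usp10, Tia1 and Tial1, and in neither Atxn2 nor Fmr1. The same letters occurred in 20.6% of all 33469 windows. Of the 7073 tested genes searched, 30.7% had a match, and their windows are richer in G and C (median 59.6% against 51.2%). The set's 11 windows held 57.6% to 85.2% G and C, and the part of this in the matches was not tested. A match is a string of letters, not a bound site. The 4 windows below are shown because they hold matches in the G3BP partners Caprin1 and Usp10 and in the TIA pair. Each runs 5′ to 3′ on the gene's strand and capitals mark the matches.
Caprin1, chr3:110641059-110641308, minus strand: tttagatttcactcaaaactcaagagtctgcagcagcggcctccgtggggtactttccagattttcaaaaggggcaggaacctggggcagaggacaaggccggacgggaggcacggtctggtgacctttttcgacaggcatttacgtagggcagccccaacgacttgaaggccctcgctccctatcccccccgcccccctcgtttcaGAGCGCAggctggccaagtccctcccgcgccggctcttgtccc
Usp10, chr19:64881547-64881796, plus strand: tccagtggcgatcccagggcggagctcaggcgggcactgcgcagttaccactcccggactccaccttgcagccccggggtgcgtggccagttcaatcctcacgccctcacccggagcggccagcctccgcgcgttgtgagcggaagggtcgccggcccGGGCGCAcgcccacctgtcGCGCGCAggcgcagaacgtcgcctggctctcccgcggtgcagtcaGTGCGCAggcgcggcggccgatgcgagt
Tia1, chr4:120410023-120410272, plus strand: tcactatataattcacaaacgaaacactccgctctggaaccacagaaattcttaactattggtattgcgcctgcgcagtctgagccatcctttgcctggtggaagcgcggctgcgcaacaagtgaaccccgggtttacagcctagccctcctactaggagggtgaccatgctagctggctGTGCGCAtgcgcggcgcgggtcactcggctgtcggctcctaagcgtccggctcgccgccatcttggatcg
Tial1, chr1:192461831-192462080, minus strand: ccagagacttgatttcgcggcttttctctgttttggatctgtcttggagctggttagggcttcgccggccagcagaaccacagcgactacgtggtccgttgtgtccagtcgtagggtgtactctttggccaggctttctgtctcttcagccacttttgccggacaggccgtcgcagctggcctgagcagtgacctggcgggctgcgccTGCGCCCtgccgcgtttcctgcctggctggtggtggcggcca
Usp10 held 3 matches, which start at -92, -73 and -28 from its first transcribed base, and the others held 1 each, at -43 in Caprin1, -70 in Tia1 and -42 in Tial1. Paired heat shock units (GAANNTTC or TTCNNGAA) and the core of an ATF4 site (TGATGNAA), searched on both strands, had 0 matches in the 11 windows, against 13.5% and 3.40% of all windows. Among tested genes the shares were 10.2% and 1.99%. Of 4 general promoter motifs searched the same way, the GC box (GGGCGG) was in 8 of 11 windows (30.5% of all windows). It was in 6 of 8 genes of the set (58.4% of tested genes). The CCAAT box (CCAAT) was in 3 windows and 3 genes (34.0% of all windows and 36.8% of tested genes). The cAMP response element (TGACGTCA) and the TATA box (TATAAA) were each in 1 window (1.59% and 12.9% of all windows). Among tested genes their shares were 3.08% and 6.69%.

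**Figure D1:**
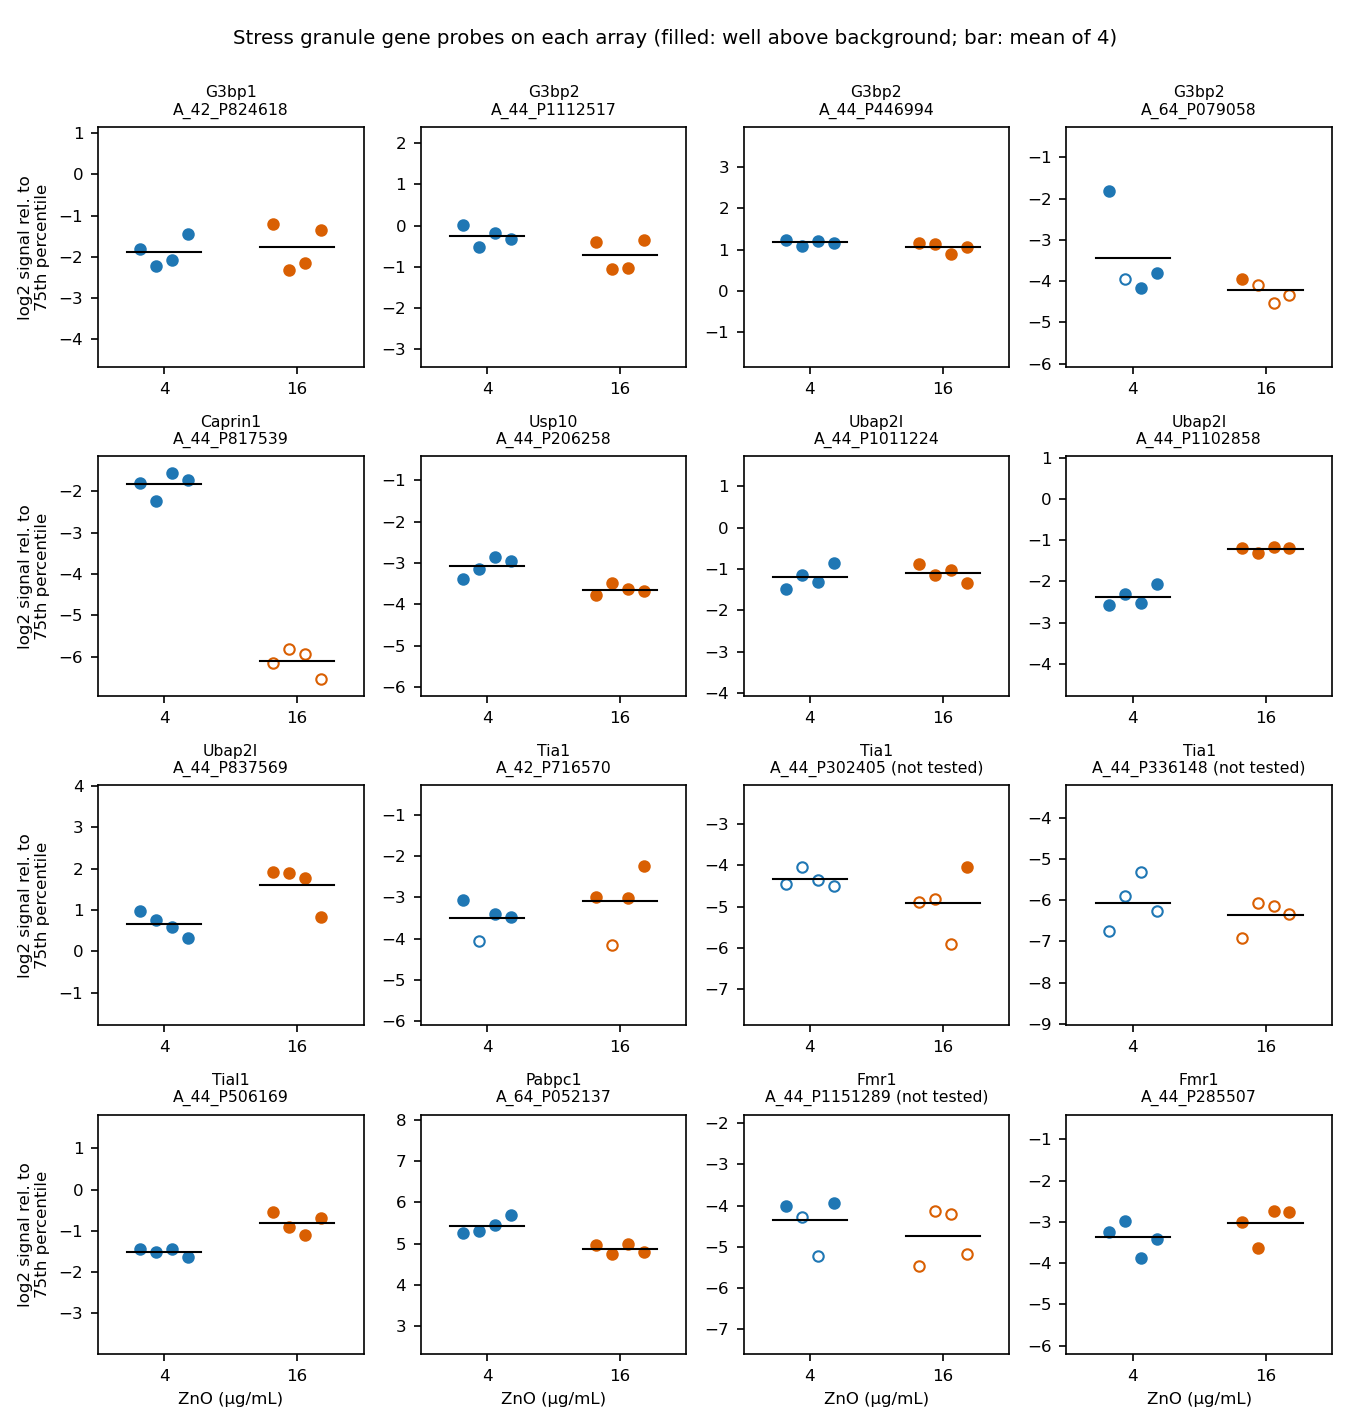
Level of each of the 16 granule probes on every array, as log2 signal relative to the array's 75th percentile, at ZnO 4 µg/mL (blue) and 16 µg/mL (orange). Each panel spans the same log2 range around its own probe, points are single arrays, filled where the spot was well above background, and bars are means of 4; the Caprin1 means separate by 4.28, while the means of every other tested probe lie within 1.16 of each other.

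The 2 G3BP scaffold genes did not pass the test. The G3bp1 probe read -1.82, -2.22, -2.08 and -1.46 at 4 µg/mL and -1.21, -2.32, -2.16 and -1.36 at 16 µg/mL. The doses cover the same span, and the difference was 0.13 with a standard error of 0.28 (adjusted p = 0.734, 95% interval -0.50 to 0.76). The sign is not fixed: leaving out replicate 1 of the 16 µg/mL samples gave -0.05, and without scaling it was -0.62. G3bp2 encodes the second form of the scaffold, and its brightest probe (A_44_P446994) read 1.24, 1.09, 1.22 and 1.17 at 4 µg/mL and 1.16, 1.14, 0.89 and 1.07 at 16 µg/mL. These levels overlap and are tight within each dose, with a difference of -0.11, a standard error of 0.11 and an adjusted p of 0.437. The 95% interval was -0.36 to 0.13 with this processing, and the difference was -0.37 with the normexp model (adjusted p = 0.0592) and -0.87 without scaling (adjusted p = 0.0889).

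The array holds 2 further G3bp2 probes, and both had lower means at 16 µg/mL without passing the test, though both passed without scaling, at -1.21 and -1.54. The probe A_44_P1112517 read 0.02, -0.51, -0.17 and -0.32 at 4 µg/mL and -0.39, -1.06, -1.03 and -0.34 at 16 µg/mL, a difference of -0.46 with a standard error of 0.20 (adjusted p = 0.0933). It passed with replicate 4 of the 16 µg/mL samples left out, at -0.58 and an adjusted p of 0.0444. The probe A_64_P079058 is near background, with 3 arrays well above it at 4 µg/mL and 1 at 16 µg/mL, and its difference was -0.79 with a standard error of 0.47 (adjusted p = 0.201). Without replicate 1 of the 4 µg/mL samples it was -0.25. Within arrays, the G3bp1 level minus the G3bp2 level shifted by 0.25 between doses, which an exact permutation test of the 70 assignments did not separate from no shift (two-sided p = 0.371, adjusted 0.495 over 4 contrasts).

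Usp10, a deubiquitinase that competes with CAPRIN1 for G3BP, lies next to the threshold. Its probe read -3.38, -3.14, -2.86 and -2.96 at 4 µg/mL and -3.78, -3.47, -3.63 and -3.69 at 16 µg/mL. Every 16 µg/mL sample was below every 4 µg/mL sample, but the difference of -0.56 (standard error 0.21, 95% interval -1.03 to -0.09) had an adjusted p of 0.0579 in the limma fit. With the value still at -0.56, the adjusted p ranged from 0.0185 with no intensity trend, through 0.0294 with only probes well above background on all 8 arrays and 0.0409 with dim signals raised, to 0.0882 with the replicate block and 0.259 with no filter on dim probes. The difference was -1.31 without scaling (adjusted p = 0.0262), -0.39 with median scaling (adjusted p = 0.258) and -0.21 with the normexp model (adjusted p = 0.0520). With 1 array left out it stayed between -0.66 and -0.49 and did not pass.

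Ubap2l, an RNA-binding partner of the G3BP proteins with a role in starting granules, was higher at 16 µg/mL on 2 of its 3 probes. The brightest probe (A_44_P837569) read 0.97, 0.76, 0.59 and 0.32 at 4 µg/mL and 1.91, 1.89, 1.78 and 0.82 at 16 µg/mL. The first 3 samples at 16 µg/mL stood above all others, and the fourth fell among the 4 µg/mL samples. The means were 0.66 ± 0.28 and 1.60 ± 0.52 (SD, n = 4 each), a 1.92-fold rise of 0.94 with a standard error of 0.25 (adjusted p = 0.0117). On replicate 4 of each dose this spot lay in a low-signal area of the array, and with those areas masked the difference was 1.09 (adjusted p = 0.00049). The probe A_44_P1102858 read -2.58, -2.31, -2.52 and -2.06 at 4 µg/mL and -1.18, -1.30, -1.17 and -1.20 at 16 µg/mL. Here the doses did not overlap, and the rise was 2.23-fold, 1.16 with a standard error of 0.16 (adjusted p = 0.00038).

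The third Ubap2l probe did not move with them. It is A_44_P1011224, designed against the same transcript, and it read -1.49, -1.16, -1.32 and -0.87 at 4 µg/mL and -0.87, -1.14, -1.02 and -1.33 at 16 µg/mL. Its levels overlap between doses, with a difference of 0.11, a standard error of 0.17 and an adjusted p of 0.625. Set against this probe within each array, the brightest probe shifted by 0.83 (exact permutation p = 0.0571, adjusted 0.114) and A_44_P1102858 by 1.04 (exact permutation p = 0.0286, the smallest that 4 against 4 can give, adjusted 0.114). A single contrast at that smallest p cannot pass after adjustment over 4, so the adjusted values do not settle whether the probes disagree. Without scaling, both Ubap2l calls were lost, at 0.19 and 0.40.

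Tial1, which encodes the RNA-binding protein TIAR, was higher at 16 µg/mL relative to the typical gene. Its probe read -1.43, -1.51, -1.44 and -1.62 at 4 µg/mL and -0.54, -0.92, -1.09 and -0.69 at 16 µg/mL. All 4 samples at 16 µg/mL were above all 4 at 4 µg/mL. The means were -1.50 ± 0.09 and -0.81 ± 0.24 (SD, n = 4 each), a 1.61-fold rise of 0.69 with a standard error of 0.16 (adjusted p = 0.0060), while without scaling the difference was -0.06.

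Its paralogue Tia1, a translational silencer and the classic granule marker, had 1 tested probe of 3. That probe (A_42_P716570) read -3.06, -4.07, -3.40 and -3.49 at 4 µg/mL and -2.99, -4.15, -3.02 and -2.23 at 16 µg/mL, and it was well above background on 3 arrays of each dose. The doses overlap, and the difference of 0.41 (standard error 0.39, 95% interval -0.45 to 1.26, adjusted p = 0.424) leaves room for a rise as large as that of Tial1. It was 0.12 without replicate 4 and 0.76 without replicate 2 of the 16 µg/mL samples. The other 2 Tia1 probes were well above background on at most 1 array of a dose and were not tested. The Tial1 level minus the Tia1 level within arrays shifted by 0.29 (exact permutation p = 0.629, adjusted 0.629), so a difference between the paralogues was not detectable with these arrays.

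Pabpc1, the main cytoplasmic poly(A)-binding protein, was lower at 16 µg/mL. Its probe, far above background on every array, read 5.27, 5.31, 5.44 and 5.69 at 4 µg/mL and 4.97, 4.76, 4.98 and 4.79 at 16 µg/mL. The doses did not overlap. The means were 5.43 ± 0.19 and 4.88 ± 0.12 (SD, n = 4 each), a 1.47-fold fall, -0.55 with a standard error of 0.13 (adjusted p = 0.0070). Scaling each array to its median in place of its 75th percentile gave -0.39 and an adjusted p of 0.0904, and without scaling the fall was larger, at -1.31.

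Fmr1 encodes FMRP, a translational repressor that joins stress granules. Its tested probe read -3.24, -2.98, -3.86 and -3.41 at 4 µg/mL and -3.01, -3.63, -2.74 and -2.75 at 16 µg/mL. These overlap, with a difference of 0.34 and a standard error of 0.28 (adjusted p = 0.354, 95% interval -0.28 to 0.96). It was 0.18 without replicate 3 of the 4 µg/mL samples and 0.54 without replicate 2 of the 16 µg/mL samples. A second Fmr1 probe cleared background on 2 arrays of the lower dose and 0 of the higher and was not tested.

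**Figure D2:**
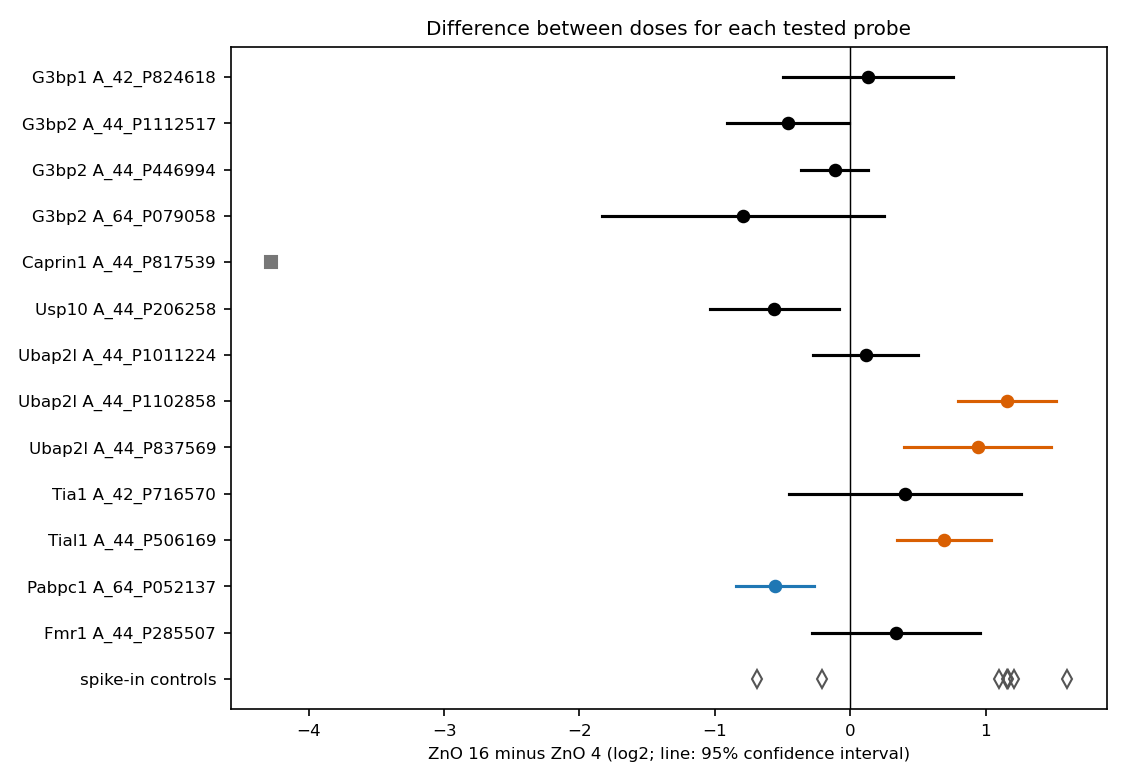
Difference in level (log2, 16 µg/mL minus 4 µg/mL) of the 13 tested granule probes with 95% intervals, probes called higher in orange, called lower in blue and not called in black, and the 7 spike-in probes as diamonds. Caprin1 is a grey square with no interval, at -4.28; Tial1 and 2 Ubap2l probes lie above 0, Pabpc1 lies below it, and the spike-ins run from -0.69 to 1.60.

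Of the 8 measured genes other than Caprin1, 3 passed the test, or 37.5%, against 41.7% of all genes tested. Ubap2l and Tial1 rose, Pabpc1 fell, and the median difference of the 8 was 0.24 beside 0.005 over all genes. The share called was near that of the array as a whole. Over the 12 tested probes of these genes, 4 passed (33.3%, against 41.7% of all 15587 probes), 3 higher and 1 lower, and 4 had doses that did not overlap (33.3%, against 39.9% of all probes), 2 higher and 2 lower (18.7% and 21.2% of all probes). Over the 8 genes, the doses did not overlap in 1 that was higher (Tial1, beside 18.5% of all genes) and 2 that were lower (Usp10 and Pabpc1, beside 21.4%). Signs were mixed, with 7 probe differences above 0 and 5 below. Of the probe differences below 0 other than Caprin1's, the one that passed was the -0.55 of Pabpc1. All 12 except the dim G3bp2 probe, at -0.79, lay within the range of the spike-ins.

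**Figure D3:**
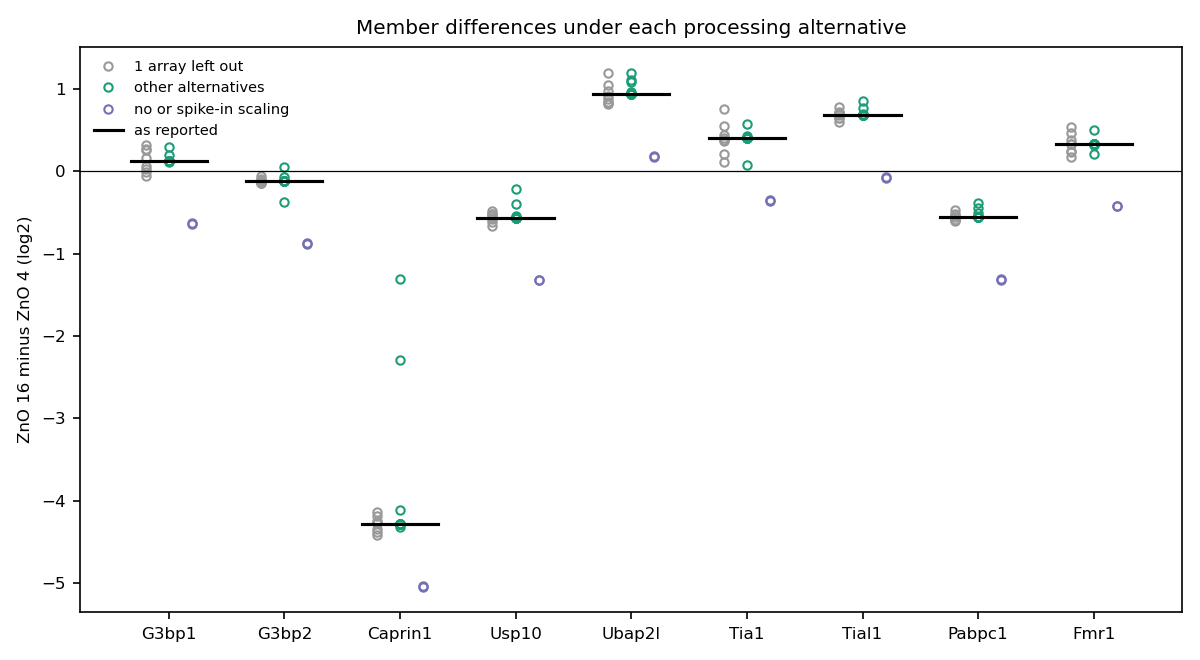
Difference in level (log2, 16 µg/mL minus 4 µg/mL) of the brightest probe of each measured granule gene under each way of processing the arrays, with 1 array left out in grey, no scaling and spike-in scaling in purple, other alternatives in green and the reported value as a bar. Pabpc1 and Usp10 stay below 0 and Ubap2l stays above 0 throughout, while Tial1 moves from 0.69 to -0.06 without scaling.

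How far 1 probe speaks for its gene on this array was read from all tested genes with a symbol, the granule genes and Caprin1 included. Where the brightest probe was higher at 16 µg/mL, 165 of 342 further probes (48.2%) also passed in that direction, 28 passed in the opposite one and 149 did not pass. Where it was lower, 117 of 322 (36.3%) followed, 29 were opposite and 176 did not pass. Falls of at least 2 were found in 93 of 6548 genes with 1 tested probe (1.42%), the class Caprin1 belongs to, and in 3 of 1443 genes with 2 or more (0.208%), where the brightest probe stood for the gene. In those 3 genes, 0 of 3 further probes passed as lower. The brightest probe has the highest mean over all arrays, which a large fall lowers, so the 0.208% is partly set by that choice. Counting any probe, among the 30 genes that had at least 2 tested probes and 1 probe lower by at least 2, another probe also passed as lower in 15 (50.0%) and passed as higher in 5.

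The wider granule and RNA-decay machinery was read from 6 lists that between them had 75 tested genes, of which 23 were higher and 14 lower, or 49.3% called beside 41.7% of all genes (19.8% higher and 21.8% lower). The lists were chosen with earlier results of these data known, so their shares are descriptions. The higher calls depend on the scaling: without scaling, and likewise with spike-in scaling, 1 gene of the eIF2 alpha list, 1 of the clearance list and 0 of the other 4 lists were called higher. Among paralogues of the set, 2 of 5 tested genes rose and 0 fell, and 1 was called lower without replicate 4 of the 4 µg/mL samples. Atxn2l, the paralogue of the unmeasured Atxn2, rose by 1.08 (standard error 0.20, adjusted p = 0.0021), with a further probe at 0.23. It missed the threshold with the normexp model, at 0.34 (adjusted p = 0.0517), and without scaling, at 0.32. Ubap2, the paralogue of Ubap2l, rose by 0.61 (standard error 0.18, adjusted p = 0.0191), and this call was lost without replicate 1 or 3 of the 4 µg/mL samples or replicate 3 of the 16 µg/mL samples, at 0.54, 0.54 and 0.55. Without scaling the Ubap2 difference was -0.14.

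Among 26 other stress granule proteins tested, 4 rose and 5 fell (34.6% called, beside 41.7% of all genes), with a median of -0.13. Without scaling 0 were called higher and 10 lower, and median scaling left 2 lower. Igf2bp2, whose protein binds messenger RNA, rose by 0.98 (adjusted p = 0.00036, further probe 0.31). Tardbp, which encodes TDP-43, rose by 0.81 on its brightest probe (adjusted p = 0.0042), but its further probes lay between -0.74 and -0.07. Prrc2a rose by 0.72 (adjusted p = 0.0408), a call lost without replicate 1, 2 or 3 of the 4 µg/mL samples or replicate 2 or 3 of the 16 µg/mL samples, with values of 0.56 to 0.76. Taf15, an RNA-binding protein, fell by 1.32 (adjusted p = 0.00096) with a further probe at -1.10. Cirbp, the cold-inducible RNA-binding protein, fell by 0.94 (adjusted p = 0.0013) while its further probe was at 0.03. Syncrip fell by 0.82 (adjusted p = 0.0140) and missed the threshold with median scaling, at -0.66. Without scaling Igf2bp2 was at 0.22, Tardbp at 0.05 and Prrc2a at -0.03, and none of these calls held. The count of 4 higher was 2 without replicate 1 or 3 of the 4 µg/mL samples or replicate 3 of the 16 µg/mL samples.

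Processing bodies are the cell's other large RNA assembly, built around decapping and deadenylation enzymes. Of 21 genes tested, 7 rose and 4 fell (52.4% called, beside 41.7% of all genes), with a median of 0.10. Without scaling 0 were called higher and 6 lower. The rises included subunits of the LSM ring that promotes decapping, Lsm6 by 0.85 (adjusted p = 0.00081), Lsm7 by 0.70 (adjusted p = 0.0116) and Lsm4 by 0.60 (adjusted p = 0.0014), while the subunit Lsm2 fell by 0.70 (adjusted p = 0.0120). Of the CCR4-NOT deadenylase complex, the catalytic subunit Cnot8 fell by 0.99 (adjusted p = 0.0022), with a further probe at -0.67, and Cnot3 fell by 0.80 (adjusted p = 0.0028). Lsm7 missed the threshold with the normexp model, at 0.33, and without scaling the differences of Lsm4, Lsm6 and Lsm7 were -0.16, 0.10 and -0.05, with no call. The count of 7 higher was 4 without replicate 1 or replicate 2 of the 4 µg/mL samples.

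Of 6 tested partners of the poly(A)-binding protein, 2 rose and 2 fell (66.7% called, beside 41.7% of all genes), around a median of 0.18. The count lower was 0 when only probes well above background on all 8 arrays were tested and 1 with dim signals raised, and 0 genes were called higher without scaling. Gspt1, a translation termination factor, rose by 1.30 (adjusted p = 0.0423), and this call was lost without replicate 1 or 2 of the 4 µg/mL samples or replicate 1, 2 or 3 of the 16 µg/mL samples, at 1.13 to 1.42. It was 0.77, and still called, without replicate 4 of the 4 µg/mL samples, and 0.55 with no call without scaling. Tob2, an adaptor of deadenylation, rose by 0.51 (adjusted p = 0.0084), but was at 0.03 with the normexp model and at -0.25 without scaling.

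Upstream of granule assembly, 7 genes of the eIF2 alpha kinases and phosphatase were tested, with 2 higher, 2 lower and a median of -0.005. The share called was 57.1%, beside 41.7% of all genes. Ppp1r15a, the stress-induced subunit that directs the phosphatase to eIF2 alpha, was at 1.91 ± 0.13 at 4 µg/mL and 5.07 ± 0.26 at 16 µg/mL (SD, n = 4 each), a rise of 3.16 with a standard error of 0.15. Its constitutive counterpart Ppp1r15b fell by 0.90 (adjusted p = 0.0038), a call lost with median scaling at -0.73. Eif2s1, which encodes eIF2 alpha, rose by 0.63 (adjusted p = 0.0055) and was at -0.12 without scaling. The count of 2 lower was 0 with median scaling, 3 without scaling, and 1 without replicate 1, 3 or 4 of the 4 µg/mL samples or replicate 2 or 3 of the 16 µg/mL samples.

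Of 10 tested genes of granule clearance, 6 rose and 1 fell, against 19.8% and 21.8% of all genes, and the median was 0.49 beside 0.005 over all genes. This list was chosen with earlier results of these data known, so these values describe it and support nothing further. Without scaling 1 was called higher and 1 lower. Bag3, a co-chaperone of HSP70, went from 1.24 ± 0.23 at 4 µg/mL to 4.20 ± 0.25 at 16 µg/mL (SD, n = 4 each), a rise of 2.96 with a standard error of 0.16. The cofactors Ufd1 and Nploc4 of the segregase VCP rose by 1.29 (adjusted p = 0.0140) and 0.73 (adjusted p = 0.00082), and were at 0.54 and -0.03, with no call, without scaling. Ufd1 read -1.74 in replicate 4 at 4 µg/mL, while the rest of that dose lay between -0.25 and 0.08. With 1 array left out its rise was 0.87 to 1.48 and was still called. Dnajb6, a co-chaperone that restrains aggregation, fell by 1.23 (adjusted p = 0.00052), with a further probe at -0.87. The count of 6 higher was 3 without replicate 3 of the 4 µg/mL samples or replicate 2 of the 16 µg/mL samples.

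**Figure D4:**
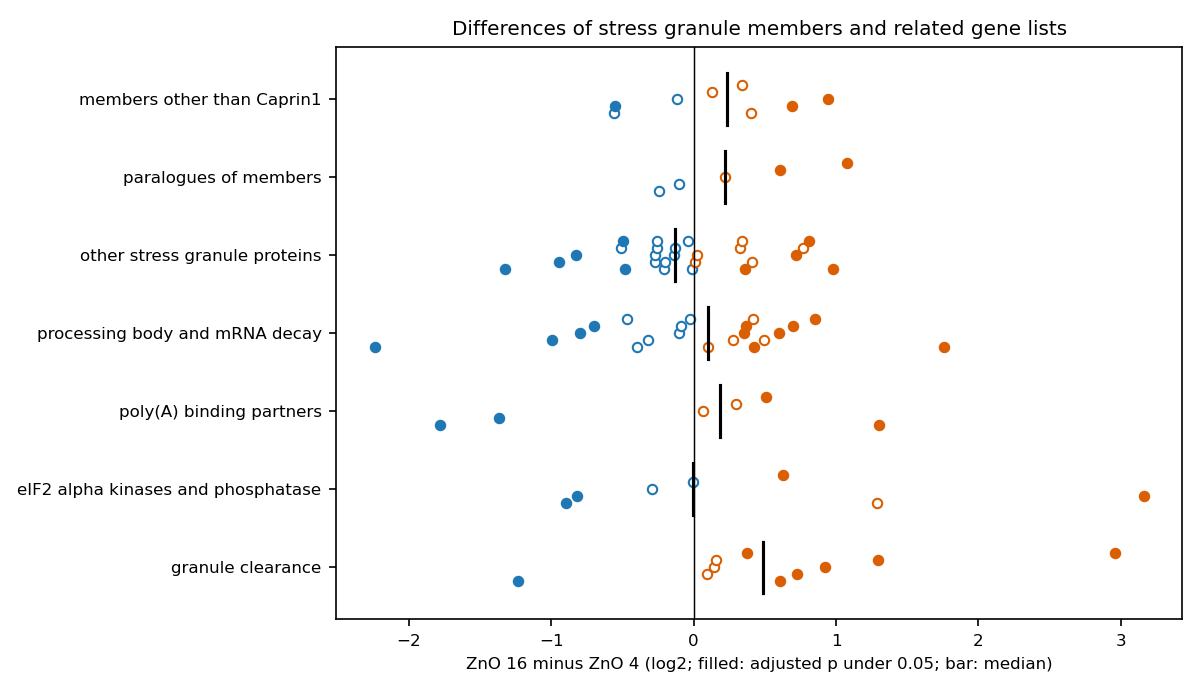
Difference in level (log2, 16 µg/mL minus 4 µg/mL) of the 8 granule genes other than Caprin1 and of each tested gene in the 6 wider lists, orange above 0 and blue below, filled where the adjusted p was under 0.05, with the median of each list as a bar. Ppp1r15a (3.16) and Bag3 (2.96) have the highest values drawn, and the medians of the wider lists lie between -0.13 and 0.49.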

How the data were processed

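The data are 8 one-colour Agilent arrays of total RNA from NR8383 cells, 4 per ZnO dose. Per the file headers and the submitters' processing notes, the spots were read with Agilent Feature Extraction 11.0.1.1, and each deposited file gives spot intensities on a linear scale, with the processed signal background-subtracted and not yet normalized between arrays. The other deposited columns used were flags and calls made by that software. The genome build in the file headers differs from GRCr8, so no probe coordinates are given.

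Each spot's processed signal was divided by the 75th percentile of its array, taken with control spots left out, and converted to log2. Spots flagged as outliers were set missing, and spots of a probe were averaged. A probe was kept if well above background on at least 3 of 4 arrays of a dose, and the brightest probe stood for its gene, or for its accession where it had no symbol (46.3% of probes have a symbol). The doses were compared with limma 3.58.1 in R 4.3.3 (empirical Bayes with an intensity trend, two-sided, Benjamini-Hochberg over all 13474 features, threshold 0.05), and further probes in the same fit over all 15587 probes. The script was tested on simulated data. No count data exist, so depth does not apply, and the number of arrays limits precision.

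The members and lists were chosen with earlier results of these data known. All members are named; from each wider list the up to 3 largest passing differences in each direction are named, among genes well above background on at least 3 of 4 arrays of both doses. No set test was run. Bounds use each array's lowest unflagged signal that was well above background. Alternatives changed the scaling, background model, probe filter, dim signals, flags, low-signal areas, intensity trend and replicate block, and left out each array in turn.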

Additional observations from a re-analysis of the deposited data

Results flagged for a closer look

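Of the 26 groups of 4 arrays examined over the tested granule probes, 2 held a sample far from the other 3, and chance gives about 1 in 20. The G3bp2 probe A_64_P079058 read -1.83 in replicate 1 at 4 µg/mL, while the other 3 samples of that dose lay between -4.17 and -3.79. The brightest Ubap2l probe, A_44_P837569, read 0.82 in replicate 4 at 16 µg/mL, while the other 3 lay between 1.78 and 1.91, and that spot was in a low-signal area of the array.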

How the results depend on the processing

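Over all genes, 2672 were called higher and 2943 lower. Leaving out 1 array at a time gave 1940 to 2760 higher and 2416 to 2818 lower, with 2 granule genes higher and 1 lower each time. Without scaling the counts were 230 and 4416, with 0 granule genes higher and 2 lower; scaling to the spike-ins gave 227 and 4659, again with 0 and 2. The count of lower granule genes was 0 with median scaling, where 3409 genes were higher and 1979 lower, and 2 when testing only probes well above background on all 8 arrays, when raising dim signals, or with no intensity trend. The Caprin1 difference was -5.04 without scaling, -5.05 with spike-in scaling, -1.30 with normexp, -2.29 with dim signals raised, and -4.42 to -4.14 with 1 array left out. Signs turned without scaling and with spike-in scaling for G3bp1 (-0.62, -0.63), Tia1 (-0.35, -0.36), Tial1 (-0.063, -0.074), Fmr1 (-0.41, -0.43), Ubap2l probe A_44_P1011224 (-0.64, -0.65), Ubap2 (-0.14, -0.15), Prrc2a (-0.034, -0.045), Lsm4 (-0.16, -0.17), Lsm7 (-0.053, -0.064), Tob2 (-0.25, -0.26), Eif2s1 (-0.12, -0.13) and Nploc4 (-0.029, -0.040). They also turned for G3bp2 with median scaling (0.053), for that Ubap2l probe with normexp (-0.11), and for G3bp1 without replicate 1 (-0.053) or replicate 4 (-0.0029) at 16 µg/mL, within a range of -0.053 to 0.32 with 1 array left out. The percentile, median and spike-in scalings each take 1 value off all probes of an array, so changing between them moves all differences together. Without scaling, G3bp1 went from 0.13 to -0.62 and Caprin1 from -4.28 to -5.04. The signs that turned without scaling or with spike-in scaling were those of rises smaller than this common shift. Why the arrays of the 2 doses differed in brightness was not tested. With the replicate block, 2593 genes were higher and 2881 lower, with the same calls among the granule genes. Same-number correlations were -0.22 to 0.40 and other correlations -0.34 to 0.21, and 4 of 8 arrays correlated best with their own number. These values do not settle whether samples of the same number were paired. Signal near background limits Tia1, Fmr1, Usp10 and the dim G3bp2 probe.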
